A study of Mus musculus with 12 samples.

Results

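The genes described here encode the receptors and matrix proteins that hold a cell to its surroundings and to other cells: integrin alpha and beta subunits, laminin chains, cadherins, and the cell-surface proteoglycans of the syndecan and glypican families. They were taken by symbol, as every listed gene named Itga or Itgb, Lama, Lamb or Lamc, Cdh, Sdc or Gpc with a number (or, for the integrin alpha subunits, one of the letters v, l, m, x and e), and came to 68 of the 23022 listed genes. Expression was measured by RNA-seq in B16-F10 cells, a mouse melanoma line, of which 12 libraries fall into 4 conditions with 3 replicates each. NTC cells, written as no template control in the labels and as a non-targeting control in the methods, were compared with cells in which both *Mbnl1* and *Mbnl2*, which encode RNA-binding regulators of splicing, were targeted (double knockout, DKO), and each genotype was untreated or treated with IFNγ, a cytokine that raises antigen presentation.

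All 4 conditions share the same background. The cells express Cas9 and descend from a single clone chosen for its editing, and both genotypes were made by lentiviral transduction of guide RNAs and drug selection. The edited cells are described as polyclonal, with insertions or deletions in most alleles and with some protein remaining, and the share of edited alleles in these libraries was not measured here. *Mbnl1* ranged from 41.1 to 47.5 TPM in DKO and from 55.6 to 63.9 TPM in NTC libraries, and *Mbnl2* from 83.9 to 98.0 TPM in DKO and from 99.2 to 107 TPM in NTC libraries.

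As background, an integrin is a pair of 1 alpha and 1 beta subunit that spans the membrane and binds matrix proteins outside the cell and, through talin and kindlin, actin inside it. Laminins are trimers of an alpha, a beta and a gamma chain and are the main cell-binding proteins of basement membranes. Cadherins join like cells in the presence of calcium and hold catenins on their inner side, and syndecans and glypicans carry heparan sulfate chains that bind matrix proteins and growth factors. Several of these proteins are known from melanoma, where a change from E-cadherin to N-cadherin and the use of the αvβ3 integrin go with growth beyond the epidermis.

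The deposited values are TPM, a share of the transcripts of a library, which divide by transcript length and can therefore be set side by side between genes. They keep no read depth. The error of a difference was therefore taken from the spread between replicates, pooled for each gene over all 12 libraries. Within a condition of 3 libraries, the median SD over tested genes was between 0.0690 and 0.0934 on the log2 scale. The listed genes summed to between 844185 and 874612 TPM in NTC and between 805782 and 827191 TPM in DKO libraries. All 7 melanocyte markers examined were present, and their sum was lower in DKO (11124 to 12414 TPM) than in NTC (16647 to 18643 TPM) libraries. The leukocyte markers *Ptprc* and *Cd3e*, the endothelial markers *Kdr*, *Tek* and *Cdh5* and all 4 epithelial markers examined were at 0 in every library, while the summed fibroblast markers were between 3.17 and 4.53 TPM in NTC and between 4.85 and 5.63 TPM in DKO libraries. The part of these differences in the results on adhesion genes was not tested. In RNA from a whole culture, fewer cells that carry a transcript and less of it per cell cannot be told apart. The labels do not say that replicates were separate cultures, so p-values measure only the spread between these libraries.

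Of the 68 genes, 26 reached 1 TPM in at least 3 libraries and were tested. They were 6 of 16 integrin alpha subunits, 5 of 8 beta subunits, 5 of 11 laminin chains, 4 of 23 cadherins, all 4 syndecans and 2 of 6 glypicans. The repertoire was led by a single integrin beta subunit, *Itgb1*, which pairs with most alpha subunits. Its TPM made up 88.3% to 91.1% of the summed beta subunits in every library, and it ranked at 413 among all listed genes in untreated NTC cells. The glypican *Gpc1* came next among the tested genes, and *Cdh19*, *Cdh2*, *Sdc4*, *Lamc1*, *Itga6* and *Itgav* followed.

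**Figure D1:**
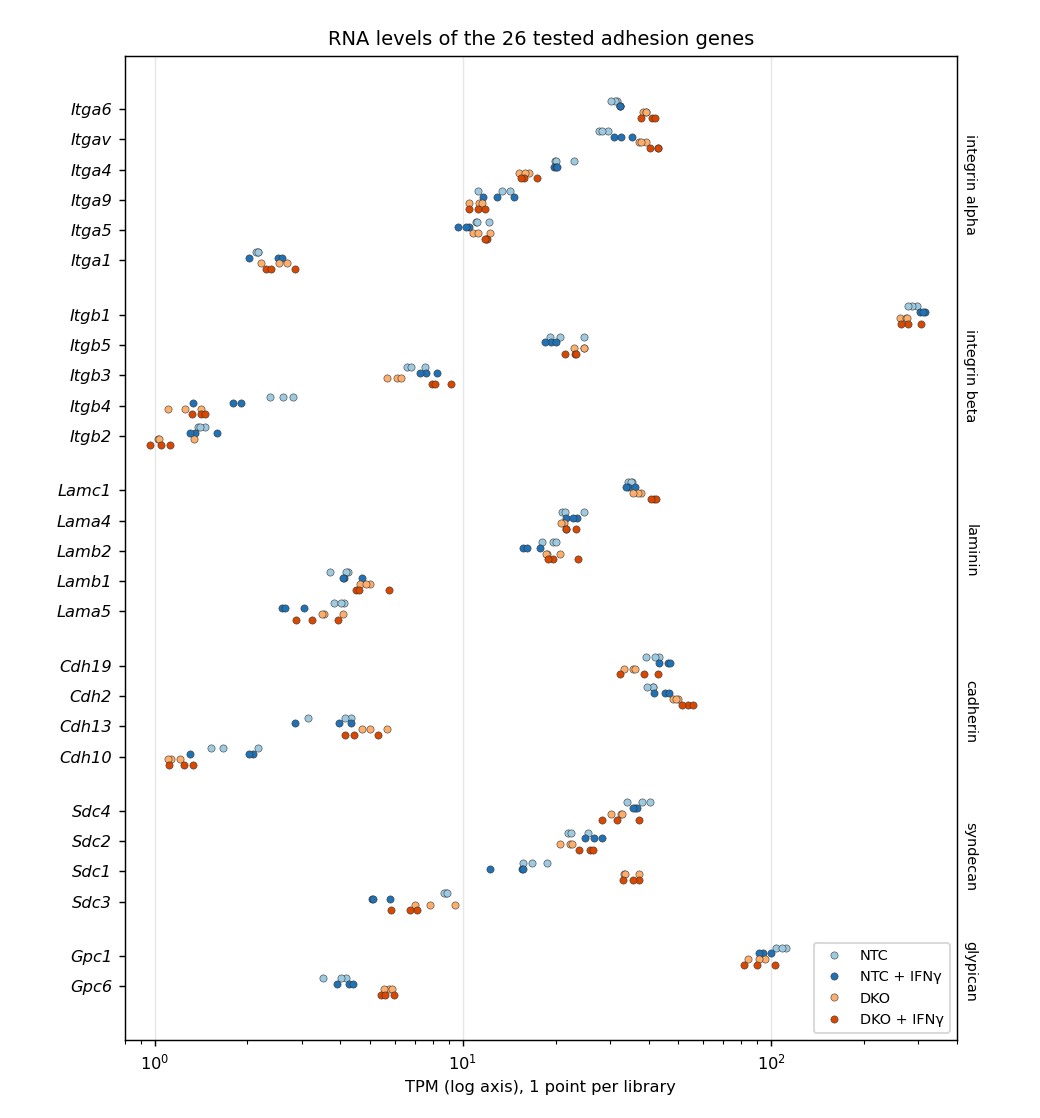
Levels of the 26 tested adhesion genes in all 12 libraries, in TPM on a log axis, grouped by family, with 1 point per library and a color for each of the 4 conditions. *Itgb1* lies between 262 and 316 TPM and *Gpc1* between 81.9 and 112 TPM, while *Itgb2* and *Cdh10* lie close to 1 TPM.

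The other 42 genes were below that level, and 10 of them were at 0 in every library: *Itgb6*, *Itgax*, *Lama1*, *Gpc3*, *Cdh4*, *Cdh5*, *Cdh8*, *Cdh16*, *Cdh20* and *Cdh26*. The classical cadherins of epithelia and placenta were nearly silent, with *Cdh1* (E-cadherin) at no more than 1.05 TPM and *Cdh3* (P-cadherin) at no more than 0.206 TPM. *Cdh15* reached 0.242 TPM. The laminin-binding subunits *Itga3* and *Itga7* peaked at 0.840 and 1.06 TPM, and the collagen-binding subunits *Itga2*, *Itga10* and *Itga11* at 0.296, 0.912 and 0.153 TPM. Of the integrin alpha subunits of leukocytes, *Itgal* and *Itgae* peaked at 0.430 and 0.369 TPM, and *Itgam* was above 0 in 1 library alone, at 1.33 TPM. *Itga8*, which binds the Arg-Gly-Asp motif, reached 1.01 TPM, and the beta subunits *Itgb7* and *Itgb8* reached 0.529 and 0.816 TPM. Among laminin chains, *Lama2*, *Lama3*, *Lamb3* and *Lamc3* peaked between 0.103 and 0.246 TPM. The glypicans *Gpc2*, *Gpc4* and *Gpc5* peaked at 0.727, 0.101 and 0.316 TPM. The other cadherins, *Cdh6*, *Cdh7*, *Cdh9*, *Cdh11*, *Cdh12*, *Cdh17*, *Cdh18*, *Cdh22*, *Cdh23* and *Cdh24*, peaked between 0.0765 and 0.822 TPM.

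DKO and NTC cells were first compared without IFNγ. log2(TPM + 1) was fitted with limma, with p-values adjusted over 11663 tested genes, and a gene was called where the adjusted p-value was under 0.05. Differences on this scale understate the change of genes near 1 TPM. Of the 26 adhesion genes, 10 were called, or 38.5%, and 36.4% of all tested genes were. This share was close to that of all genes, so the count is not a result about adhesion genes as a group. *Sdc1*, *Itgav*, *Itga6*, *Cdh2* and *Gpc6* were higher in DKO, and *Itgb4*, *Itga4*, *Cdh10*, *Gpc1* and *Cdh19* were lower. Over all tested genes, 17.0% were higher and 19.4% lower. The split depended on the scaling between libraries: when all libraries were brought to an equal total over the listed genes, 7 adhesion genes were higher and 2 lower, and the share of higher genes among all calls went from 46.7% to 60.6%. The median difference over the tested adhesion genes was −0.08, against −0.01 over all tested genes.

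With IFNγ in both genotypes, 12 of the 26 genes were called (46.2%), against 43.3% of all tested genes. The 9 that were higher in DKO were *Sdc1*, *Gpc6*, *Itgav*, *Itga6*, *Lamb2*, *Cdh2*, *Lamc1*, *Itgb5* and *Itga5*, and the 3 that were lower were *Itga4*, *Cdh19* and *Itgb1*. Over all tested genes, 19.5% were higher and 23.9% lower. With scaling to an equal total the split was 10 higher and 1 lower, and over all genes the share of higher calls went from 44.9% to 65.2%. After a trend in GC content and transcript length had been taken out of each library (GC-corrected values), it was 5 higher and 4 lower. The median difference was 0.14 over the tested adhesion genes and −0.01 over all tested genes.

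The untreated and the treated comparison share no library in their means. Both take their spread from the same fit of all 12 libraries, so they are not fully separate tests. Of the 10 and 12 genes called, 7 were called in both, or 70.0% of the first list and 58.3% of the second, and all 7 had the same sign in both, 5 higher and 2 lower. Over all tested genes, the shared calls were 75.8% and 63.7% of the lists. The sign was the same for 22 of the 26 adhesion genes (84.6%) and for 78.7% of all tested genes.

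**Figure D2:**
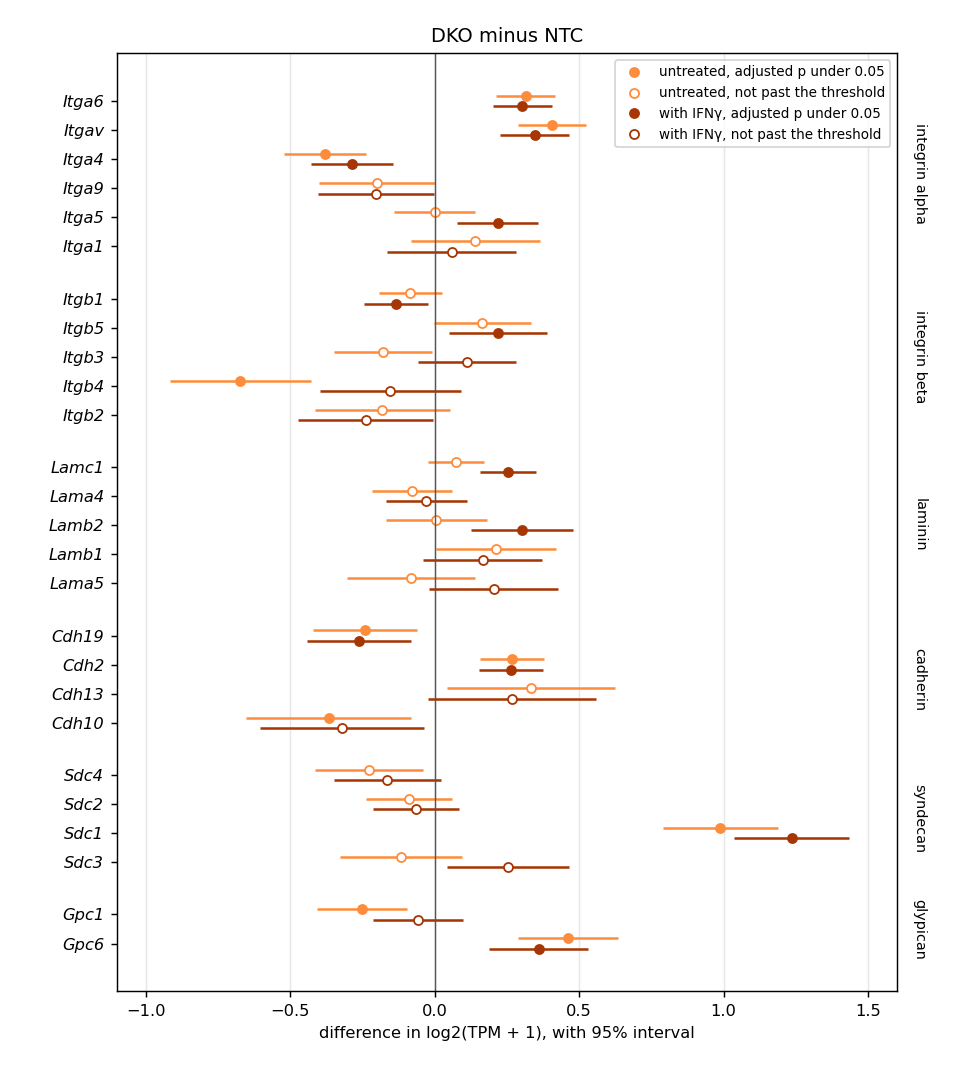
Difference between DKO and NTC for the 26 tested adhesion genes in log2(TPM + 1), untreated and with IFNγ, with 95% intervals from limma. Filled points passed an adjusted p-value of 0.05. *Sdc1* lies farthest to the right in both comparisons, at 0.99 and 1.24, and *Itgb4* farthest to the left without IFNγ, at −0.67.

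The largest difference by genotype was that of a syndecan. *Sdc1*, a syndecan of epithelial and plasma cells, stood at 15.6, 18.7 and 16.8 TPM in untreated NTC, at 15.6, 15.6 and 12.2 TPM in treated NTC, at 37.4, 33.3 and 33.5 TPM in untreated DKO and at 37.2, 35.5 and 33.1 TPM in treated DKO libraries. Every DKO library was above every NTC library, and the DKO mean was 2.04 times the NTC mean without IFNγ (log2 difference 0.99, SE 0.0921, adjusted p = 3.59e-06) and 2.44 times with it (log2 difference 1.24, SE 0.0921, adjusted p = 4.40e-07). In the 20 alternative fits the untreated difference stayed between 0.93 and 1.06, and the treated one between 1.13 and 1.32. *Sdc4*, which gathers at focal adhesions, stood at 34.02, 40.6 and 38.1 TPM in untreated NTC, at 36.2, 36.7 and 35.7 TPM in treated NTC, at 32.6, 30.1 and 32.9 TPM in untreated DKO and at 28.2, 37.3 and 31.6 TPM in treated DKO libraries. Its DKO libraries were all below its NTC libraries without IFNγ and overlapped them with it, and neither difference passed (log2 difference −0.23, SE 0.0863, adjusted p = 0.0538 and log2 difference −0.16, SE 0.0863, adjusted p = 0.141). *Sdc2*, a syndecan of mesenchymal cells, was at 22.0, 25.5 and 22.4 TPM in untreated NTC, at 28.2, 24.8 and 26.7 TPM in treated NTC, at 22.2, 20.6 and 22.6 TPM in untreated DKO and at 25.7, 23.9 and 26.4 TPM in treated DKO libraries, with overlapping genotypes in both comparisons.

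The makeup of the syndecan RNA differed between genotypes. *Sdc1* was between 15.2% and 20.03% of the summed syndecan TPM in NTC and between 34.1% and 37.8% in DKO libraries, and *Sdc4* was between 42.3% and 44.6% in NTC and between 28.7% and 36.1% in DKO libraries. *Sdc1* was below both *Sdc2* and *Sdc4* in all 6 NTC libraries. In DKO it was above *Sdc2* in all 6 libraries and above *Sdc4* in 5 of 6. The summed syndecans ranged from 80.3 to 93.4 TPM in NTC and from 91.0 to 103 TPM in DKO libraries.

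*Sdc3*, a syndecan known from nerve tissue, stood at 8.79, 8.67 and 8.91 TPM in untreated NTC, at 5.08, 5.12 and 5.78 TPM in treated NTC, at 9.46, 6.99 and 7.81 TPM in untreated DKO and at 7.09, 6.71 and 5.84 TPM in treated DKO libraries. It did not differ past the threshold by genotype without IFNγ (log2 difference −0.12, SE 0.0981, adjusted p = 0.384). With IFNγ every DKO library was above every NTC library, and the difference fell just short of the threshold (log2 difference 0.25, SE 0.0981, adjusted p = 0.0521). It passed in 7 alternatives, among them a pseudocount of 0.1, both scalings between libraries and the fit without treated NTC replicate 3 (0.30, adjusted p = 0.0452), and it was 0.05 on GC-corrected values (adjusted p = 0.674). *Sdc1* and *Sdc3* are the syndecans with the largest difference by genotype and by IFNγ, and their promoters, the 250 bases before the RefSeq start in GRCm38.p6, are shown for that reason. *Sdc1* (chr12:8771146-8771395, plus strand) and *Sdc3* (chr4:130792287-130792536, plus strand) are each printed in lower case with the GC box GGGCGG, searched on both strands, in capitals.
Sdc1 promoter: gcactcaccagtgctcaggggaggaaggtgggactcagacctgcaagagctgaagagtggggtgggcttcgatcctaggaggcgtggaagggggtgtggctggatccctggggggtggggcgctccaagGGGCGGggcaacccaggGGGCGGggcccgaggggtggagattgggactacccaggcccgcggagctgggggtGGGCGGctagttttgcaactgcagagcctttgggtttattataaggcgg
Sdc3 promoter: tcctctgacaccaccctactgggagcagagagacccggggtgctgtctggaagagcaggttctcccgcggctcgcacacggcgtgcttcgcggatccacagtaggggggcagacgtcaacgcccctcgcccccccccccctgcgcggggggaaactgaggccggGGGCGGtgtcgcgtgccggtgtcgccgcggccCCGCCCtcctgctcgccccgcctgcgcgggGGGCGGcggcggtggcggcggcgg

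Each of these promoters held 3 GC boxes, the core of the sequence bound by Sp1 and related factors. For comparison, 32.7% of 32851 RefSeq promoters of the same length held a GC box. Unlike the tested adhesion genes, these promoters were not filtered for expression, and an enrichment was not tested. Of the 26 tested adhesion genes, 14 had a promoter in the RefSeq table. A GC box was found in 9 of them. These matches describe letters in a window and not binding.

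Among integrin alpha subunits, the RGD-binding *Itgav* and the laminin-binding *Itga6* were higher in DKO in both comparisons. *Itgav*, the αv subunit of the vitronectin and fibronectin receptors (chr2:83724397-83806916 in GRCm38, plus strand), stood at 27.6, 29.7 and 28.2 TPM in untreated NTC, at 31.0, 35.5 and 32.5 TPM in treated NTC, at 37.2, 39.1 and 37.8 TPM in untreated DKO and at 42.9, 40.5 and 43.0 TPM in treated DKO libraries. Every DKO library was above every NTC library of the same treatment, by 0.41 (log2, SE 0.0553, adjusted p = 8.70e-05) without IFNγ and by 0.35 (log2, SE 0.0553, adjusted p = 0.000267) with it. *Itga6*, the α6 subunit of laminin receptors (chr2:71745616-71858416, plus strand), stood at 31.7, 31.2 and 30.3 TPM in untreated NTC, at 32.3, 32.4 and 32.4 TPM in treated NTC, at 38.3, 39.2 and 39.1 TPM in untreated DKO and at 41.0, 37.7 and 41.8 TPM in treated DKO libraries. Here too all DKO libraries lay above all NTC libraries, by 0.32 (log2, SE 0.0472, adjusted p = 0.000186) and 0.30 (log2, SE 0.0472, adjusted p = 0.000222). Both genes kept their calls in all alternatives, and the DKO means of the 2 genes were 1.24 to 1.34 times the NTC means.

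*Itga4*, the α4 subunit of the receptor for VCAM-1 and fibronectin (chr2:79255426-79333123, plus strand), moved the other way. It stood at 23.0, 19.8 and 20.1 TPM in untreated NTC, at 19.7, 20.01 and 20.2 TPM in treated NTC, at 16.4, 15.2 and 15.9 TPM in untreated DKO and at 15.8, 15.5 and 17.4 TPM in treated DKO libraries. All DKO libraries were below all NTC libraries, and the differences were −0.38 (log2, SE 0.0657, adjusted p = 0.000563) without IFNγ and −0.29 (log2, SE 0.0657, adjusted p = 0.00346) with it, called in every alternative. *Cerkl*, at up to 10.3 TPM, overlaps the end of *Itga4* on the opposite strand, and reads of the 2 genes are not separated by strand in these libraries.

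*Itga5*, the α5 subunit of the fibronectin receptor, stood at 12.1, 11.0 and 11.1 TPM in untreated NTC, at 10.4, 10.3 and 9.64 TPM in treated NTC, at 12.3, 10.8 and 11.2 TPM in untreated DKO and at 11.9, 12.01 and 11.8 TPM in treated DKO libraries. Without IFNγ the genotypes overlapped, with means of 11.4 TPM each. With IFNγ all DKO libraries were above all NTC libraries (log2 difference 0.22, SE 0.0651, adjusted p = 0.0160), a call lost without treated NTC replicate 3 (0.19, adjusted p = 0.0623) and on GC-corrected values (0.06, adjusted p = 0.489). *Itga9*, a close relative of *Itga4*, ranged from 11.2 to 14.6 TPM in NTC and from 10.5 to 11.8 TPM in DKO libraries and passed in neither comparison (adjusted p = 0.114 and 0.0922). *Itga1*, a collagen-binding subunit, lay between 2.03 and 2.84 TPM over all libraries, and reads may be shared with *Pelo*, which lies within it on the same strand at up to 34.5 TPM.

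Among beta subunits, *Itgb1* stood at 297, 285 and 277 TPM in untreated NTC, at 303, 316 and 310.1 TPM in treated NTC, at 262, 274 and 275 TPM in untreated DKO and at 279, 263 and 307 TPM in treated DKO libraries. The difference was small, −0.08 (log2, SE 0.0509, adjusted p = 0.220) without IFNγ and −0.13 (log2, SE 0.0509, adjusted p = 0.0474) with it, and the treated genotypes overlapped. The treated call was kept in 4 of 20 alternatives, and it was lost in 10 of the 12 fits without 1 library (−0.15 to −0.08, adjusted p = 0.0523 to 0.189), all but those without untreated NTC replicate 1 or treated DKO replicate 3. With scaling to an equal total it was −0.05 (adjusted p = 0.425). *Itgb5*, which pairs with αv, stood at 24.7, 19.1 and 20.6 TPM in untreated NTC, at 19.3, 18.4 and 20.04 TPM in treated NTC, at 24.7, 24.7 and 22.9 TPM in untreated DKO and at 23.1, 23.2 and 21.4 TPM in treated DKO libraries. It was not called without IFNγ (log2 difference 0.16, SE 0.0785, adjusted p = 0.119) and was higher in DKO with it (log2 difference 0.22, SE 0.0785, adjusted p = 0.0368), a call lost without treated NTC replicate 1 or 2 or treated DKO replicate 1 or 2 (0.19 to 0.22, adjusted p = 0.0697 to 0.114), without the filter on low values (adjusted p = 0.0570) and on GC-corrected values (0.09, adjusted p = 0.410).

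*Itgb4*, the β4 subunit that pairs with α6 in hemidesmosomes (chr11:115974709-116008412, plus strand), had the largest difference below NTC. It stood at 2.61, 2.36 and 2.82 TPM in untreated NTC, at 1.90, 1.80 and 1.33 TPM in treated NTC, at 1.10, 1.26 and 1.41 TPM in untreated DKO and at 1.41, 1.46 and 1.32 TPM in treated DKO libraries. The untreated DKO mean was 0.484 of the NTC mean, with no overlap (log2 difference −0.67, SE 0.113, adjusted p = 0.000452). The call was kept in all 19 alternatives that tested the gene, with values from −0.99 to −0.62. The filter of 5 TPM left *Itgb4* out. The treated genotypes overlapped (log2 difference −0.15, SE 0.113, adjusted p = 0.291), and the treated difference was −0.41 on GC-corrected values (adjusted p = 0.0128). *Itgb3*, the β3 subunit of the αvβ3 receptor, stood at 6.58, 6.77 and 7.53 TPM in untreated NTC, at 7.57, 8.22 and 7.28 TPM in treated NTC, at 5.66, 6.10 and 6.31 TPM in untreated DKO and at 9.14, 7.94 and 8.10 TPM in treated DKO libraries, and neither genotype difference passed (log2 difference −0.18, SE 0.0789, adjusted p = 0.0930 and log2 difference 0.11, SE 0.0789, adjusted p = 0.274). *Itgb2*, the beta subunit of leukocyte integrins, lay between 0.966 and 1.59 TPM and was not called, with all DKO libraries below all NTC libraries of the same treatment.

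**Figure D3:**
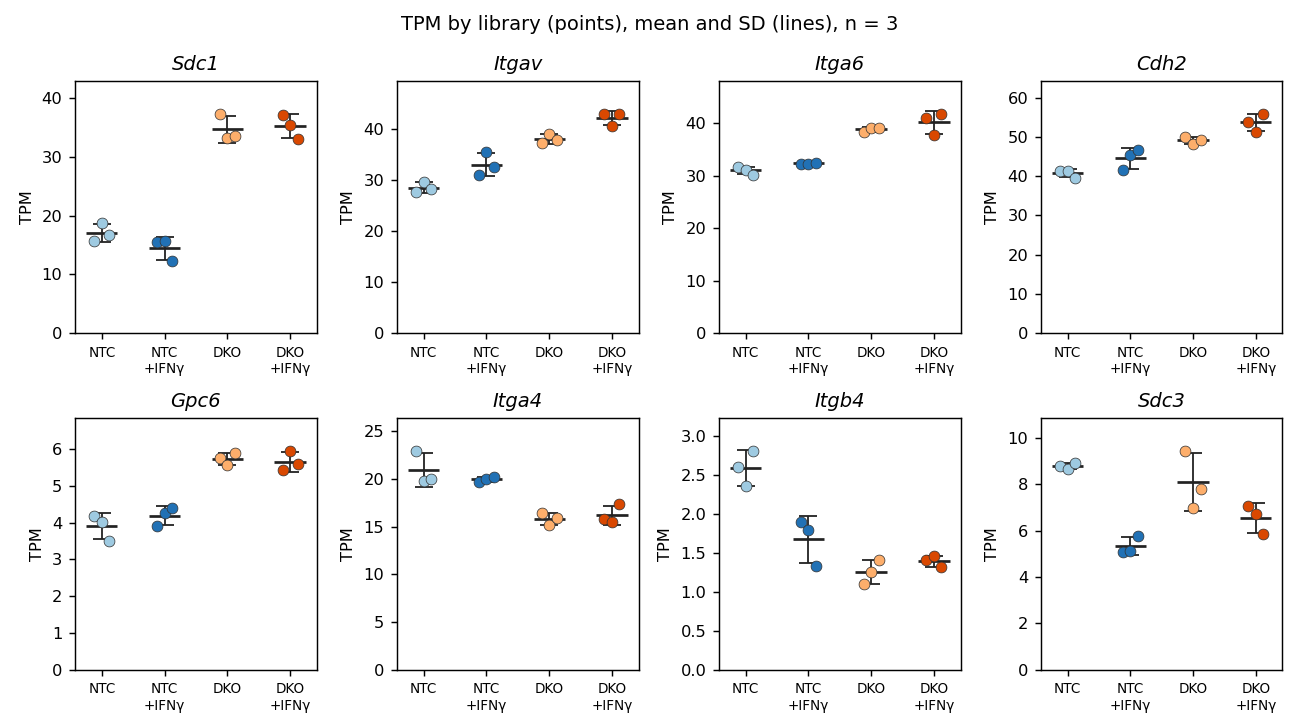
TPM in each of the 12 libraries for 8 adhesion genes, with the mean (long line) and SD (error bar) of the 3 libraries of a condition and all axes from 0. *Sdc1* is at 12.2 to 18.7 TPM in NTC and at 33.1 to 37.4 TPM in DKO libraries, and *Sdc3* and *Itgb4* are lower with IFNγ in NTC libraries.

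The tested laminin chains, *Lama4*, *Lama5*, *Lamb1*, *Lamb2* and *Lamc1*, are those of the laminins of vessel walls and of many other basement membranes. None was called by genotype without IFNγ (limma, 1 of 5 at an unadjusted p under 0.05), against 36.4% of all tested genes, and 2 of the 5 (40%) were higher in DKO with it, close to the 43.3% of all tested genes called there. *Lamc1*, the common γ1 chain, stood at 35.3, 34.3 and 35.2 TPM in untreated NTC, at 34.3, 33.8 and 36.1 TPM in treated NTC, at 37.8, 36.9 and 35.7 TPM in untreated DKO and at 41.7, 42.3 and 40.7 TPM in treated DKO libraries. It was 0.25 (log2, SE 0.0450, adjusted p = 0.000590) higher with IFNγ and not called without it (log2 difference 0.07, SE 0.0450, adjusted p = 0.226), with all DKO libraries above all NTC libraries in both comparisons. *Lamb2*, the β2 chain of kidney and neuromuscular basement membranes, stood at 19.6, 20.1 and 18.1 TPM in untreated NTC, at 17.8, 15.7 and 16.2 TPM in treated NTC, at 20.7, 18.8 and 18.5 TPM in untreated DKO and at 19.6, 23.6 and 18.9 TPM in treated DKO libraries. Its genotypes overlapped without IFNγ and were apart with it (log2 difference 0.30, SE 0.0817, adjusted p = 0.00934). On GC-corrected values, neither treated call was kept, with *Lamc1* at 0.11 (adjusted p = 0.109) and *Lamb2* at 0.09 (adjusted p = 0.239). *Lama4*, the α4 chain of vessel walls, stood at 24.8, 21.0 and 21.4 TPM in untreated NTC, at 21.6, 23.5 and 22.8 TPM in treated NTC, at 21.1, 21.3 and 20.8 TPM in untreated DKO and at 21.6, 21.6 and 23.3 TPM in treated DKO libraries, with the genotypes overlapping throughout. *Lamb1* ranged from 3.70 to 4.71 TPM in NTC and from 4.50 to 5.77 TPM in DKO libraries and was not called (adjusted p = 0.102 and 0.181).

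Of the cadherins, N-cadherin was the classical member expressed. *Cdh2*, which encodes it, stood at 41.2, 41.3 and 39.5 TPM in untreated NTC, at 41.5, 45.3 and 46.7 TPM in treated NTC, at 49.9, 48.1 and 49.3 TPM in untreated DKO and at 53.8, 51.3 and 55.8 TPM in treated DKO libraries. All DKO libraries were above all NTC libraries of the same treatment, by 0.27 (log2, SE 0.0514, adjusted p = 0.00126) and 0.27 (log2, SE 0.0514, adjusted p = 0.00110), and both calls were kept in every alternative. *Cdh19*, a cadherin of neural crest and Schwann cell precursors, stood at 43.3, 39.3 and 42.1 TPM in untreated NTC, at 43.2, 46.3 and 46.9 TPM in treated NTC, at 33.2, 35.5 and 36.3 TPM in untreated DKO and at 38.7, 32.2 and 43.1 TPM in treated DKO libraries. It was lower in DKO with no overlap in both comparisons (log2 difference −0.24, SE 0.0835, adjusted p = 0.0360 and log2 difference −0.26, SE 0.0835, adjusted p = 0.0220). The untreated call was lost without untreated NTC replicate 1 or 3 or any of the untreated DKO replicates (−0.27 to −0.21, adjusted p = 0.0527 to 0.119). The treated call was lost without treated NTC replicate 2 or 3 or treated DKO replicate 2 (−0.25 to −0.15, adjusted p = 0.0626 to 0.0886). With scaling to an equal total, both were lost, at −0.19 and −0.18. The treated call was also lost on GC-corrected values (−0.07, adjusted p = 0.245) and with the 6 libraries of the comparison alone (adjusted p = 0.0605), and the untreated one without the filter on low values (adjusted p = 0.0607).

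The balance of these cadherins differed with the genotype: *Cdh2* was above *Cdh19* in 1 of 6 NTC and in all 6 DKO libraries, and its share of the summed cadherin TPM was between 43.8% and 47.3% in NTC and between 51.9% and 55.3% in DKO libraries. *Cdh10*, a cadherin of brain, was close to the filter, at 2.16, 1.67 and 1.52 TPM in untreated NTC, at 1.304, 2.09 and 2.02 TPM in treated NTC, at 1.13, 1.21 and 1.10 TPM in untreated DKO and at 1.11, 1.33 and 1.25 TPM in treated DKO libraries. Its untreated DKO libraries were all below the NTC libraries (log2 difference −0.37, SE 0.132, adjusted p = 0.0442), a call lost in 7 of 12 fits without 1 library, those without untreated NTC replicate 1 or 2, any untreated DKO replicate, or treated DKO replicate 1 or 3 (−0.39 to −0.27, adjusted p = 0.0506 to 0.176). It was lost in 10 of 19 alternatives in all, scaling to an equal total (adjusted p = 0.0581) and GC-corrected values (adjusted p = 0.0836) among them. *Cdh13* (T-cadherin, which is anchored to the membrane by lipid) ranged from 2.85 to 4.33 TPM in NTC and from 4.15 to 5.67 TPM in DKO libraries and was not called (adjusted p = 0.0686 and 0.128).

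The tested glypicans went in opposite directions. *Gpc6* stood at 4.19, 4.01 and 3.50 TPM in untreated NTC, at 3.91, 4.27 and 4.39 TPM in treated NTC, at 5.75, 5.56 and 5.89 TPM in untreated DKO and at 5.43, 5.96 and 5.59 TPM in treated DKO libraries, with every DKO library above every NTC library, and was 0.46 (log2, SE 0.0800, adjusted p = 0.000583) higher without IFNγ and 0.36 (log2, SE 0.0800, adjusted p = 0.00279) higher with it. Both calls were kept in every alternative. *Gpc1*, the main glypican of these cells, stood at 104, 112 and 108 TPM in untreated NTC, at 100.1, 93.8 and 91.1 TPM in treated NTC, at 95.5, 84.3 and 91.4 TPM in untreated DKO and at 89.9, 103 and 81.9 TPM in treated DKO libraries. It was lower in DKO without IFNγ, with no overlap (log2 difference −0.25, SE 0.0724, adjusted p = 0.0146), a call lost without untreated NTC replicate 2 or untreated DKO replicate 2 (−0.23 and −0.20, adjusted p = 0.0526 to 0.0666) and with scaling to an equal total (−0.20, adjusted p = 0.0560). With IFNγ the genotypes overlapped (log2 difference −0.06, SE 0.0724, adjusted p = 0.539).

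Few of these genes were called with IFNγ. In NTC cells, 4 of 26 were called (15.4%), against 12.1% of all tested genes, of which 7.31% rose and 4.78% fell. *Itgav* rose, and *Sdc3*, *Itgb4* and *Lama5* fell. At an unadjusted p under 0.05 (limma) there were 11 of the 26, against 3707 of 11663 tested genes. With scaling to an equal total or by median ratios, the split was 0 higher and 3 lower, and over all tested genes the share of rising calls went from 60.5% to 45.1% and 44.3%. The 4 calls became 1 in each fit that left out replicate 2 or 3 of either NTC condition, and 2 in the fit that left out the first untreated NTC library. The untreated NTC libraries enter both this comparison and that of the untreated genotypes.

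*Sdc3* fell most, to 0.606 of its untreated mean (log2 difference −0.63, SE 0.0981, adjusted p = 0.00227), with all treated NTC libraries below all untreated ones. The call was kept in every alternative, with values from −0.71 to −0.46. *Itgb4* fell to 0.646 of its untreated mean, again with no overlap (log2 difference −0.43, SE 0.113, adjusted p = 0.0291). It lost the call without treated NTC replicate 2 or 3 or any untreated NTC replicate (−0.48 to −0.33, adjusted p = 0.0611 to 0.109). *Lama5*, the α5 chain of laminins of many adult tissues, stood at 3.80, 4.12 and 4.01 TPM in untreated NTC, at 3.06, 2.58 and 2.65 TPM in treated NTC, at 4.09, 3.54 and 3.50 TPM in untreated DKO and at 3.24, 3.94 and 2.87 TPM in treated DKO libraries. It fell in NTC with no overlap (log2 difference −0.40, SE 0.103, adjusted p = 0.0267), a call lost without untreated NTC replicate 2 or 3 or treated NTC replicate 2 or 3 (−0.40 to −0.37, adjusted p = 0.0800 to 0.0924). The 3 transcripts that fell are rich in GC, at 58.7% for *Sdc3*, 60.0% for *Itgb4* and 59.9% for *Lama5*, against a median of 50.8% over the tested adhesion genes. On GC-corrected values, *Sdc3* was at −0.46 (adjusted p = 0.0115), *Itgb4* at −0.24 (adjusted p = 0.257) and *Lama5* at −0.15 (adjusted p = 0.252). *Itgav* rose by 0.20 (log2, SE 0.0553, adjusted p = 0.0332), with all treated libraries above the untreated ones. This call did not pass without treated NTC replicate 2 or 3 or any untreated NTC replicate (0.15 to 0.23, adjusted p = 0.0588 to 0.123), under both scalings, with the 6 NTC libraries alone (adjusted p = 0.0629) and on GC-corrected values (0.13, adjusted p = 0.144).

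In DKO cells, 1 adhesion gene of 26 was called (3.85%), against 0.780% of all tested genes. At an unadjusted p under 0.05 (limma) there were 6 of the 26, against 1119 of 11663 tested genes. *Itgb3* rose with IFNγ to 1.39 times its untreated mean, with all treated DKO libraries above the untreated ones (log2 difference 0.42, SE 0.0789, adjusted p = 0.0213), and its value in NTC cells was 0.13 (adjusted p = 0.288). The DKO call was lost without untreated DKO replicate 1 or 2 or treated DKO replicate 1 (0.36 to 0.43, adjusted p = 0.0830 to 0.125), and also in the fit on the 6 DKO libraries alone. *Sdc3* was at −0.26 in DKO cells (adjusted p = 0.388), *Itgb4* at 0.09 (adjusted p = 0.864), *Lama5* at −0.12 (adjusted p = 0.767) and *Itgav* at 0.14 (adjusted p = 0.402).

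**Figure D4:**
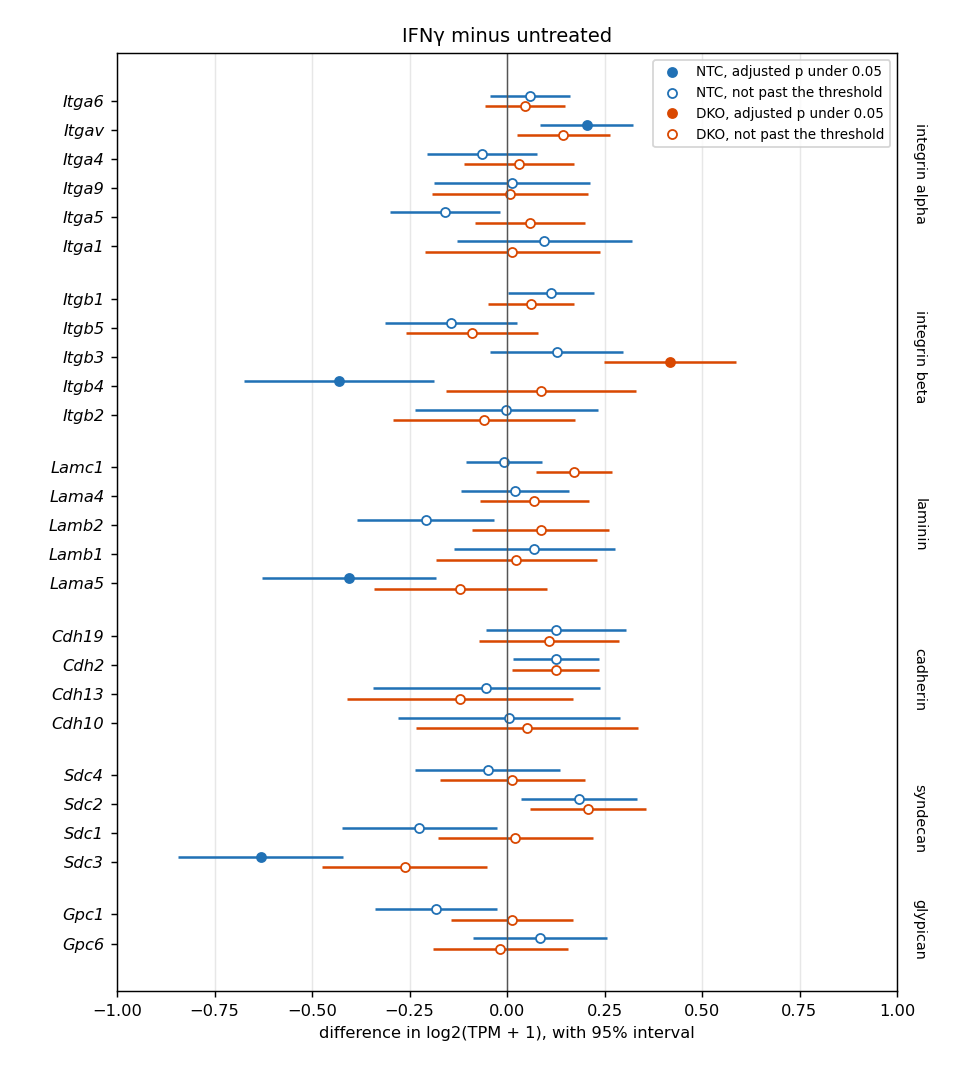
Change with IFNγ of the 26 tested adhesion genes in NTC and in DKO cells, in log2(TPM + 1), with 95% intervals from limma. Filled points passed an adjusted p-value of 0.05: in NTC *Sdc3* (−0.63), *Itgb4* (−0.43), *Lama5* (−0.40) and *Itgav* (0.20), and in DKO *Itgb3* (0.42).

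Whether the response to IFNγ differed between the genotypes was tested directly. None of the 26 genes passed with limma, against 0.0343% of all tested genes, and 6 had an unadjusted p-value under 0.05, against 1340 of 11663 tested genes. The largest difference of responses was that of *Itgb4* (log2 difference 0.52, SE 0.160, adjusted p = 0.364, 95% interval 0.17 to 0.86), followed by *Sdc3* (log2 difference 0.37, SE 0.139, adjusted p = 0.409, 95% interval 0.07 to 0.67). A gene called in one genotype and not in the other is therefore not shown to respond differently. Of the 26 tested genes, 18 were called in at least 1 of the 5 comparisons and 8 in none: *Itga1*, *Itga9*, *Itgb2*, *Lama4*, *Lamb1*, *Cdh13*, *Sdc2* and *Sdc4*.

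Genes that work with these proteins were taken as 5 lists. Heparan sulfate is the sugar chain of syndecans and glypicans, and of 16 genes that build or edit it, 14 were tested. Without IFNγ, 6 were higher and 2 lower in DKO, and with it 9 were higher and 3 lower. These were 57.1% and 85.7% of the tested genes of the list, beside 36.4% and 43.3% of all tested genes. On GC-corrected values 3 of the 9 treated higher calls were lost, those of *Xylt2* (0.043, adjusted p = 0.635), *B4galt7* (0.12, adjusted p = 0.101) and *Xylt1* (0.22, adjusted p = 0.0646), and with scaling to an equal total the lower call of *B3galt6* was (−0.22, adjusted p = 0.0543). These 4 are named after their values were seen. In the 12 fits without 1 library, the treated call of *Xylt2* was lost in 4 (0.19 to 0.26, adjusted p = 0.0629 to 0.122). That of *B4galt7* was lost in 3 (0.14 to 0.19, adjusted p = 0.0522 to 0.105) and that of *Xylt1* in 1 (0.27, adjusted p = 0.0642). The untreated call of *Xylt2* was lost in 3 (0.23 to 0.27, adjusted p = 0.0608 to 0.0781). With the 6 libraries of the comparison alone, the treated calls of *Xylt2* and *B4galt7* were also lost. The median difference over the 14 tested genes was 0.19 without IFNγ and 0.25 with it, against −0.01 over all tested genes in both. *Sulf2*, an extracellular enzyme that removes 6-O-sulfate groups, had means of 33.97 TPM in DKO and 20.4 TPM in NTC cells without IFNγ (log2 difference 0.71, SE 0.0681, adjusted p = 4.50e-06), and *Extl3*, which starts the chain, 23.5 and 17.1 TPM (log2 difference 0.44, SE 0.0711, adjusted p = 0.000361). *Ext2*, a subunit of the polymerase, was lower, at 37.2 and 53.4 TPM (log2 difference −0.51, SE 0.0530, adjusted p = 9.08e-06), and so was *Glce*, the epimerase of glucuronic acid, at 7.49 and 11.0 TPM (log2 difference −0.49, SE 0.0829, adjusted p = 0.000461). For all 4 the libraries did not overlap, and the calls were kept in every alternative and also with IFNγ. *Sulf1* and *Hs6st2* were not tested, at no more than 0.373 and 0 TPM.

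**Figure D5:**
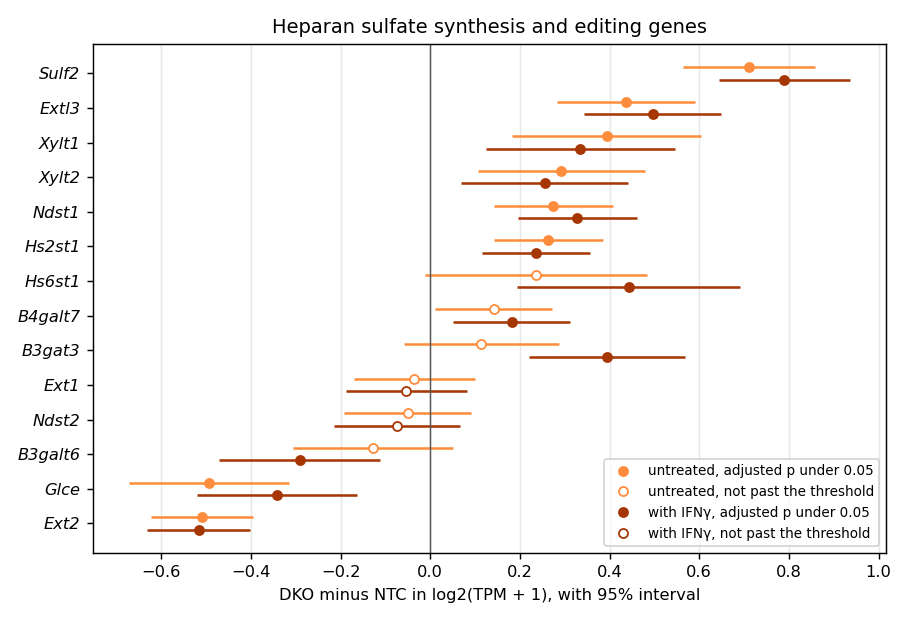
Difference between DKO and NTC for the 14 tested genes of heparan sulfate synthesis and editing, untreated and with IFNγ, in log2(TPM + 1), with 95% intervals from limma. Filled points passed an adjusted p-value of 0.05. *Sulf2* is highest, at 0.71 and 0.79, and *Ext2* and *Glce* are lowest without IFNγ, at −0.51 and −0.49.

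Of 11 integrin ligands and counter-receptors, 6 were tested, and 3 were higher and 0 lower in DKO in each genotype comparison (limma, 3 at an unadjusted p under 0.05 in each). That is 50% of 6 genes, beside 36.4% and 43.3% of all tested genes. The treated call of *Agrn*, which encodes the proteoglycan agrin, was lost on GC-corrected values (0.078, adjusted p = 0.194). *Fn1*, which encodes fibronectin, the ligand of α5β1 and αv integrins, had means of 23.5 TPM in DKO and 17.3 TPM in NTC cells without IFNγ (log2 difference 0.42, SE 0.0556, adjusted p = 6.44e-05), and *Spp1* (osteopontin) had 5.24 and 3.94 TPM (log2 difference 0.34, SE 0.105, adjusted p = 0.0225). The *Fn1* call was kept in every alternative. That of *Spp1* was lost without untreated NTC replicate 3 or untreated DKO replicate 2 or 3 (0.29 to 0.32, adjusted p = 0.0658 to 0.0842). The counter-receptors of leukocyte integrins and of α4β1, *Icam1* and *Vcam1*, were not tested, at no more than 0.226 and 0.193 TPM in any library, IFNγ included. With IFNγ in NTC cells *Spp1* rose (log2 difference 0.39, SE 0.105, adjusted p = 0.0317) and *Agrn* was called lower (log2 difference −0.20, SE 0.0610, adjusted p = 0.0485). The call of *Spp1* was lost without untreated or treated NTC replicate 2 or 3 (0.35 to 0.40, adjusted p = 0.0859 to 0.110) and on GC-corrected values (0.28, adjusted p = 0.0739), and that of *Agrn* in 9 of 12 fits without 1 library (−0.23 to −0.17, adjusted p = 0.0586 to 0.158), all but those without treated NTC replicate 1 or treated DKO replicate 2 or 3. *Agrn* was at −0.023 (adjusted p = 0.820) on GC-corrected values, and was not called with the 6 NTC libraries alone (adjusted p = 0.0544) or without the filter on low values (adjusted p = 0.0681).

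Inside the cell, 13 of 15 integrin adaptors and kinases were tested. Without IFNγ 0 were higher and 3 lower in DKO (limma, 6 at an unadjusted p under 0.05), and with it 2 were higher and 2 lower. The talin gene *Tln2*, a higher call named here after its values were seen, went from 0.16 to −0.024 on GC-corrected values. Its call (limma, adjusted p = 0.0477) was kept in 6 of 20 alternatives. It was lost in 10 of 12 fits without 1 library (0.14 to 0.18, adjusted p = 0.0529 to 0.125). The calls without and with IFNγ were 23.1% and 30.8% of the 13 genes, beside the larger shares of 36.4% and 43.3% of all tested genes. *Lims1* (PINCH-1, a partner of integrin-linked kinase) had means of 35.9 TPM in DKO and 48.0 TPM in NTC cells without IFNγ (log2 difference −0.40, SE 0.0728, adjusted p = 0.000758), and *Zyx*, which encodes the focal adhesion protein zyxin, 49.4 and 62.8 TPM (log2 difference −0.35, SE 0.0826, adjusted p = 0.00527). The number of untreated calls was 5 on GC-corrected values, with the 6 libraries of the comparison alone, and without treated DKO replicate 2 or 3. In NTC cells *Zyx* and the kinase gene *Src* were called lower with IFNγ, with differences of −0.38 (log2, SE 0.0826, adjusted p = 0.0152) and −0.19 (log2, SE 0.0581, adjusted p = 0.0462). The *Zyx* call was lost without untreated NTC replicate 2 or treated NTC replicate 2 or 3 (−0.39 to −0.37, adjusted p = 0.0530 to 0.0554), and the *Src* call in 9 of 12 fits without 1 library (−0.22 to −0.16, adjusted p = 0.0557 to 0.148), all but those without treated NTC replicate 1 or treated DKO replicate 2 or 3. On GC-corrected values *Src* was at −0.014 (adjusted p = 0.914), and its call was also lost with the 6 NTC libraries alone (adjusted p = 0.0640) and without the filter on low values (adjusted p = 0.0634). *Fermt1* and *Fermt3*, the kindlins of epithelia and blood cells, were at no more than 0 and 0.637 TPM.

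Of 6 cadherin partners, 5 were tested, and without IFNγ 0 were higher and 3 lower in DKO (limma, 3 at an unadjusted p under 0.05). *Ctnnd1* (p120-catenin, which holds cadherins at the surface) had means of 81.9 TPM in DKO and 105 TPM in NTC cells (log2 difference −0.35, SE 0.0397, adjusted p = 1.74e-05), with no overlap and with the call kept in every alternative. *Vezt*, which encodes vezatin, had 16.7 and 20.4 TPM (log2 difference −0.27, SE 0.0812, adjusted p = 0.0187), a call lost without untreated NTC replicate 1 or 3 or untreated DKO replicate 2 or 3 (−0.27 to −0.19, adjusted p = 0.0513 to 0.0940). With IFNγ, 1 was higher and 3 were lower, and the higher one, *Jup* (plakoglobin), was not called on GC-corrected values (0.31, adjusted p = 0.0548). The calls were 60% and 80% of the 5 genes, beside 36.4% and 43.3% of all tested genes. *Ctnna2* was at 0 in every library. Of the laminin receptors and sheddases, all 5 were tested, and 4 were higher and 0 lower in DKO without IFNγ (limma, 4 at an unadjusted p under 0.05) and 3 higher and 0 lower with it. The calls were 80% and 60% of these 5 genes, beside 36.4% and 43.3% of all tested genes in either direction. Over all tested genes 17.0% and 19.5% were called higher. *Bcam*, which encodes the Lutheran receptor of laminin α5, had means of 2.32 TPM in DKO and 1.44 TPM in NTC cells without IFNγ (log2 difference 0.44, SE 0.118, adjusted p = 0.00989), and *Adam10*, which encodes a sheddase of N-cadherin, 50.3 and 41.3 TPM (log2 difference 0.28, SE 0.0591, adjusted p = 0.00229). Both untreated calls were kept in every alternative that tested the gene, and the filter of 5 TPM left *Bcam* out. *Adam10* was called higher with IFNγ in NTC cells (log2 difference 0.20, SE 0.0591, adjusted p = 0.0482), a call lost in 8 of 12 fits without 1 library (0.16 to 0.20, adjusted p = 0.0571 to 0.156), those without untreated or treated NTC replicate 2 or 3, any untreated DKO replicate or treated DKO replicate 1. That call was also lost on GC-corrected values (0.083, adjusted p = 0.275), under both scalings (0.16 and 0.17, adjusted p = 0.0691 and 0.0725), with the 6 NTC libraries alone (adjusted p = 0.0588) and without the filter on low values (adjusted p = 0.0716). *Hs6st1*, a 6-O-sulfotransferase of heparan sulfate, was called lower with IFNγ in NTC cells (log2 difference −0.40, SE 0.115, adjusted p = 0.0423), a call lost in 7 of 12 such fits (−0.44 to −0.26, adjusted p = 0.0566 to 0.141), those without any untreated NTC replicate, treated NTC replicate 2 or 3, untreated DKO replicate 3 or treated DKO replicate 1. It was at −0.25 (adjusted p = 0.187) on GC-corrected values, and was not called with the 6 NTC libraries alone (adjusted p = 0.0770) or without the filter on low values (adjusted p = 0.0683).

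For IFNγ, as over all tested genes (12.1% called in NTC and 0.780% in DKO cells), the lists held fewer calls than by genotype. In NTC cells 1 of 6 ligands was called higher and 1 lower, 2 of 13 adaptors lower, 1 of 14 genes of heparan sulfate synthesis lower, 1 of 5 laminin receptors and sheddases higher, and 0 of 5 cadherin partners were called (limma, 2 at an unadjusted p under 0.05). In DKO cells 0 genes of the 5 lists were called with limma, and at an unadjusted p under 0.05 there were 2 ligands, 1 adaptor and 1 gene of heparan sulfate synthesis.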

How the data were processed

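Poly(A) RNA of 12 B16-F10 libraries was sequenced without strand information by the authors. The deposited values are gene-level TPM that the authors made with RSEM 1.2.4, modified to call Bowtie, with unaligned reads passed to TopHat (20.8b in the submitters' processing notes) against the mouse genome GRCm38 (mm10). The deposited table names them counts, but they are not whole numbers. A scaling between libraries is not given in the sources used here, and gene-level TPM do not separate splice forms.

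Groups and replicate numbers came from the labels. Of 23022 listed genes, the 11663 that reached 1 TPM in 3 or more libraries were tested. log2(TPM + 1) of all 12 libraries was fitted in 1 model with limma 3.58.1 in R 4.3.3, with a mean per condition and a variance prior that follows expression. Calls had a Benjamini-Hochberg adjusted p under 0.05 over all tested genes, and intervals are at 95%. A count model was not used, since the values are not counts. The fit was tested on simulated data with known differences. The 5 comparisons were DKO against NTC for each treatment, IFNγ against untreated for each genotype, and the difference of those responses.

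The adhesion genes and the lists beside them were chosen with earlier results of these data known. Values in every library are given for adhesion genes called in at least 1 comparison or with a mean of at least 20 TPM in any condition, and ranges or highest values for the rest. Of the other lists, up to 2 genes per direction and list with the largest difference are named, from those called by genotype without IFNγ or by IFNγ in NTC cells, with *Icam1* and *Vcam1* always given.

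The alternatives were a pseudocount of 0.1 TPM, no filter and a filter of 5 TPM, scaling to an equal total or by median ratios, removal of a smooth trend in GC content and transcript length, a replicate block, the 6 libraries of a comparison alone, and each library left out in turn. Coordinates, GC content and transcript length came from GENCODE M21 (a value for 99.1% of tested genes), and promoters from RefSeq. Python 3.11.15, numpy 2.4.6, pandas 2.3.3 and matplotlib 3.10.9 made the tables and figures. The values of 1 adhesion gene below the filter and the matches of 1 promoter motif are not reported here.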

Additional observations from a re-analysis of the deposited data

How the results depend on the processing

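Of 27 calls of adhesion genes over the 5 comparisons, 14 were kept in all alternatives that tested the gene and 13 were lost in at least 1. A further 16 values not called as reported were called in at least 1. No adhesion gene changed sign with a call on the other side. The number called by genotype without IFNγ was 10, with a range of 7 to 11 without 1 library, and with IFNγ 12, with a range of 9 to 14. In NTC cells the 4 calls with IFNγ became 2 with a filter of 5 TPM, which removed *Itgb4* and *Lama5* before testing. They became 1 after the trend in GC content and length was removed, and ranged from 1 to 6 without 1 library. In DKO cells the 1 call became 0 with a replicate block and with the 6 libraries of the comparison alone, and ranged from 0 to 1 without 1 library. The test of the difference of responses gave 0 calls in all alternatives. Among the integrin adaptors, removal of the GC trend turned the treated genotype differences of *Tln1* from 0.06 to −0.18 and of *Tln2* from 0.16 to −0.024. The cause of these shifts was not tested.

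Libraries with the same replicate number did not deviate together: over 18 such pairs the correlations of deviations from the condition means ran from −0.18 to 0.18, and over 36 other pairs from −0.22 to 0.21, so the numbers were not taken as pairs. With the replicate block the counts were 10 and 11 by genotype without and with IFNγ, 4 with IFNγ in NTC and 0 in DKO cells. The count of 10 covers 1 call gained, *Sdc4*, and 1 lost, *Cdh10*. The block lost the untreated genotype call of *Cdh10* (adjusted p = 0.0624), the treated one of *Itgb1* (adjusted p = 0.0642) and the call of *Itgb3* in DKO cells (adjusted p = 0.0620), and among the pathway genes the treated genotype call of *Tln2* (adjusted p = 0.0603) and the calls with IFNγ in NTC cells of *Agrn* (adjusted p = 0.0637), *Hs6st1* (adjusted p = 0.0592) and *Adam10* (adjusted p = 0.0648). TPM keep no depth, so no interval from read counts can be given for genes near 1 TPM.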
